A study of Drosophila melanogaster with 2 samples.

Results

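The exon peaks outside promoters were 307 of the 8443 Drgx-eGFP binding peaks called on pooled libraries from Drosophila melanogaster embryos. Each has its summit, the position of highest enrichment, in an annotated exon and more than 500 bp from every annotated transcription start site of any gene. They made up 3.64% of the pooled peaks (exact 95% binomial interval 3.25 to 4.06%, which covers counting error only). Of the summits, 63 lay in 5' untranslated regions (UTRs), 103 in protein-coding sequence, 68 in 3' UTRs and 73 in other exons, all 73 of which belonged to non-coding RNA genes. The remaining peaks were 3105 at promoters, 3796 in introns and 1235 between genes.

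The embryos were 1 day old and came from the transgenic strain Drgx-GFP, in which the Drgx protein carries an enhanced green fluorescent protein tag. Chromatin of whole embryos was sheared by sonication to 200 to 800 bp and precipitated with an antibody against GFP, so all tissues were mixed. Both libraries, biological replicates 1 and 2 in the labels, carry the same transgene, and the single group has no untagged or input library among the files used here. The processed data are 8 peak lists on the dm6 build, thresholded or ranked, made from each replicate and from both together, and hold no read counts, so the depth behind a peak is unknown. No p-value is given, because peaks of one library are not replicates of a condition.

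Drgx is a transcription factor with a paired-like homeodomain, a DNA-binding fold that recognises short A and T-rich sites built on a TAAT core. Its mouse counterpart is known for its role in sensory neurons of the dorsal root ganglia and in their targets in the dorsal spinal cord. Binding of such factors is usually studied at promoters and at enhancers in introns and between genes. An exon that lies far from a start site can also hold regulatory DNA, and coding sequence has a base composition of its own because it must encode protein.

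The strongest of the 307 peaks lay in exons of long non-coding RNAs and in UTRs, and nearly all coding-exon peaks were weak. Sequences under coding-exon and non-coding-exon summits are shown first, because base composition differed most between these types. They are 30 bases of the plus strand of the dm6 reference, RefSeq's copy of the Release 6 assembly, with the summit base in capitals. The 3 coding-exon summits were the 3 highest by signal whose peaks overlapped thresholded peaks of both replicates, among those on the chromosome arms shown here. The 3 non-coding summits were chosen in the same way. CG1632 entered by overlap alone: its pooled signal of 62.1 was below the coding-exon median, and the replicates' summits lay 188 and 143 bp from the one shown.
Snx27, coding exon, chrX:5737286-5737315: ggggtccattcgctgTggtcacgcctacgc
sgg, coding exon, chrX:2659530-2659559: gagcgcttctcatcgCaaacatcgacgggc
CG1632, coding exon, chrX:8271997-8272026: gcgctcattggggtcTcctcctggcggatc
lncRNA:CR46035, non-coding exon, chr3R:17704411-17704440: gtcactcatcaaaagActgaactttggcct
lncRNA:CR44619, non-coding exon, chrX:12752357-12752386: aatttgaagaaaataCaaaaaaatatcgca
lncRNA:CR44619, non-coding exon, chrX:12754509-12754538: aagctaactataccaTaaaacaaattaaga
The first 3 held 66.7%, 60% and 66.7% G and C, and the last 3 held 43.3%, 20% and 23.3%.

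The second set shows the homeodomain core. Among the 4 highest such exon peaks with TAATTA within 50 bp of the summit, 2 lay in non-coding exons and 2 in 3' UTRs. Each line is the plus strand of the same build, with TAATTA in capitals.
lncRNA:CR46004, non-coding exon, chr3L:10316057-10316086: aaccattttctgTAATTAtatgaatttatt
lncRNA:CR43644, non-coding exon, chr3R:26020452-26020481: tatatttattggTAATTAacatagttgctg
CG14440, 3' UTR, chrX:6696654-6696683: cgcgatgctcagTAATTAttttaatattta
CG12025, 3' UTR, chr3L:1869017-1869046: aaattcaactcaTAATTAttatacatatat
All 4 were thresholded peaks of both replicates. Their signals in the pool were 278, 226, 207 and 183.

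The signal is the authors' enrichment value for a peak. No label or header states its scale, so it was only ranked or compared within one list. The median pooled signal was 148 for non-coding exons, 119 for 3' UTRs, 114 for 5' UTRs and 75.5 for coding exons, against 122 for promoters, 122 for introns and 117 between genes. As a percentile of all pooled peaks, the median coding-exon peak stood at 14.5, and the median non-coding-exon peak stood at 62.1. Of the 307 exon peaks, 50 were in the highest 25% of the pooled list by signal, or 16.3%, where all peaks give 25%. These 50 comprised 27 in non-coding exons, 15 in 3' UTRs, 7 in 5' UTRs and 1 in coding sequence. The lowest 25% of the list held 126 exon peaks, of which 78 were coding. The 1000 strongest pooled peaks included 25 exon peaks, among them 13 in non-coding exons and 0 in coding sequence.

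**Figure D1:**
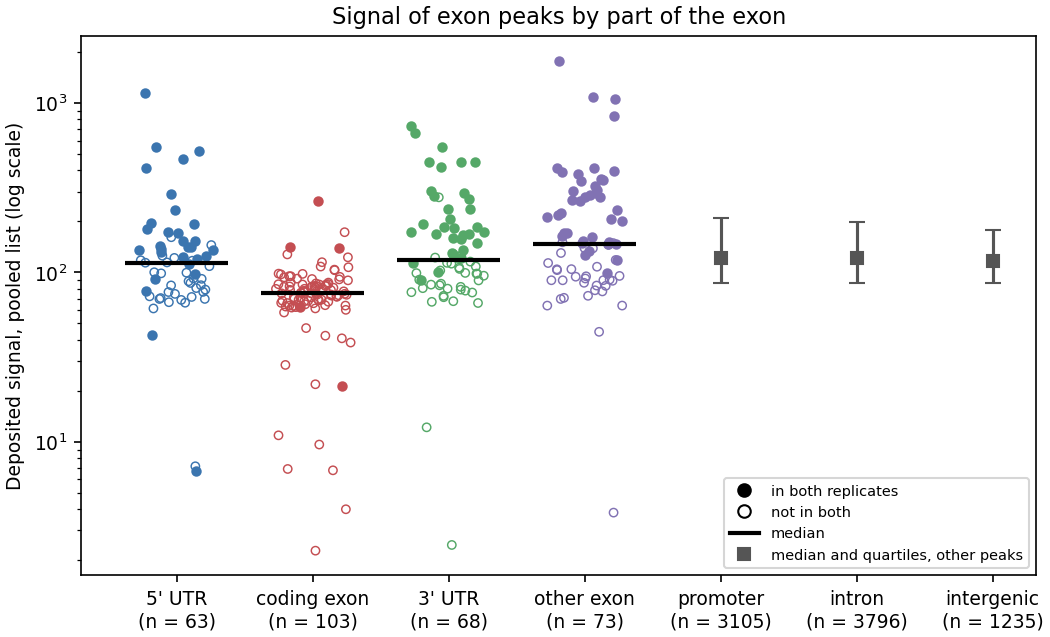
Authors' signal in the pooled list (log axis) for each of the 307 exon peaks, by the part of the exon that holds the summit, with the median as a bar; filled points were thresholded peaks of both replicates. Grey squares and whiskers are the median and quartiles of promoter, intron and intergenic peaks. The coding-exon points lie low, with a median of 75.5, and almost all are open.

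The replicates' own lists, each thresholded on its own library, gave the same order at its ends. The median coding-exon peak stood at percentile 16.6 of the replicate 1 list (33 peaks) and 11.8 of the replicate 2 list (25 peaks). Non-coding-exon peaks stood at 56.5 (60 peaks) and 61.2 (54 peaks). The 5' UTR peaks differed more between lists, at 29.9 in replicate 1 and 39.9 in replicate 2, against 46.7 in the pool.

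Density, the number of summits per Mb of sequence in a class, separated the exon types further. Exons outside promoters cover 26.4 Mb and held 11.6 summits per Mb, against 71.9 in introns, 33.9 between genes and 63.1 over the 6 chromosomes. Coding sequence held 5.61 per Mb, so the density in introns was 12.8 times that in coding sequence. The 3' UTRs held 11.5 per Mb. The 5' UTRs held 60.4 per Mb and non-coding exons 66.5 per Mb, both near the intron value. In replicate 1 the densities were 1.80 in coding sequence, 8.26 in 3' UTRs, 47.9 in 5' UTRs and 54.7 in non-coding exons, against 54.2 in introns. In replicate 2 they were 1.36, 7.76, 31.6 and 49.2 in the same order, against 46.8 in introns. The gap between coding sequence and introns was thus wider in each replicate than in the pool, at 30.2 and 34.4 times. Chromosome 4 had 0 exon peaks, with 2 pooled peaks in all.

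**Figure D2:**
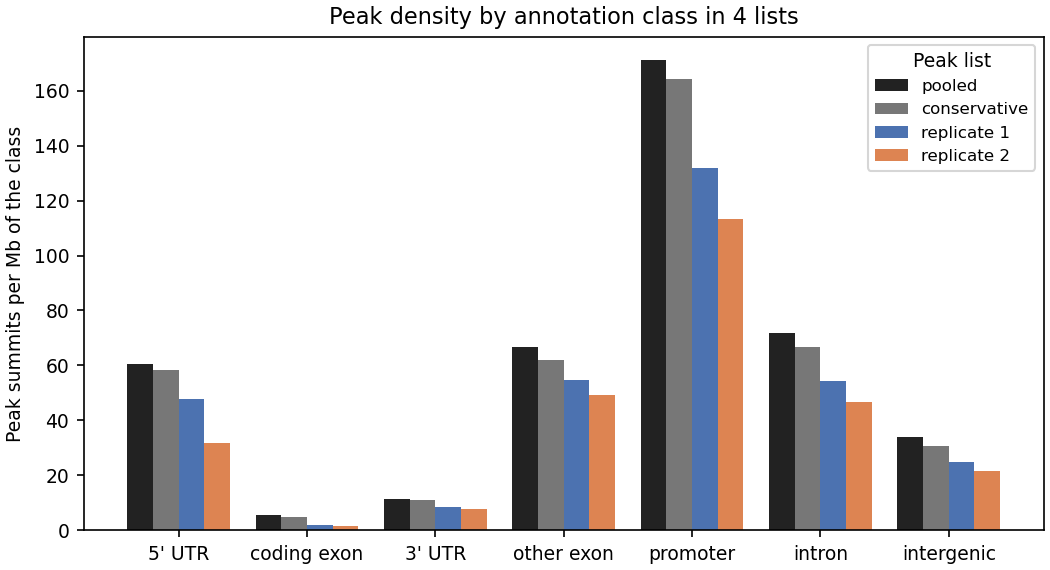
Summits per Mb of each annotation class in the pooled, conservative, replicate 1 and replicate 2 lists. Coding exons are the lowest class in all 4 lists, with 5.61 per Mb in the pool, while 5' UTRs and non-coding exons stand near introns at 60.4, 66.5 and 71.9 per Mb.

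Among non-coding exons, the strongest peak lay in lncRNA:CR46035, a single-exon gene whose plus-strand span runs antisense within osa. The gene osa encodes a subunit of a Brahma chromatin-remodelling complex. The peak, chr3R:17704226-17704668, had a signal of 1778 in the pool, 1007 in replicate 1 and 771 in replicate 2, and ranked 15 in each list. Its summit moved by 0 bp in replicate 1 and 6 bp in replicate 2. Antisense placement of this kind was seen for 17 of the 73 non-coding-exon peaks, and 43 of the 73 lay in single-exon transcripts. The same shares over all non-coding exon sequence were not computed, so these counts have no background beside them. A second antisense case was lncRNA:CR46084 opposite scrib, a cell polarity gene, with 416 in the pool, 225 in replicate 1 and 183 in replicate 2.

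The gene lncRNA:CR44619 on chromosome X held 3 peaks within its 2705 bp, all in exons. The peak in its first exon, chrX:12752193-12752506, had 1080 in the pool, 612 in replicate 1 and 476 in replicate 2. The summit of that peak lay 505 bp from a start site, and the replicate 1 summit, 16 bp away, was in the promoter class. The peak in the gene's last exon, chrX:12754357-12754683, had 1061 in the pool, 588 in replicate 1 and 483 in replicate 2. The third, 576 bp from the second, had 151 in the pool and passed the threshold in replicate 1 alone, with 89.5. The gene lncRNA:CR43650 on 2R also held 3, with pooled signals of 357, 287 and 119, of which 2 were peaks in both replicates. Further non-coding-exon peaks among the 20 highest in both replicates were in lncRNA:CR44468 at 412 and in lncRNA:CR44632 at 392.

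The gene with most exon peaks was lncRNA:CR43334, with 8 along 15466 bp (chr3L:628435-643900, plus strand). The annotation places the hairpin of mir-ban inside it. Bantam, the microRNA from that hairpin, is known for promoting growth and limiting cell death. From the 5' to the 3' end the pooled signals were 119, 83.4, 302, 396, 843, 77.3, 90.8 and 202. The central peak, chr3L:636493-636776, had 436 in replicate 1 and 403 in replicate 2, and lay 8197 bp from the first annotated start. Of the 8 peaks, 5 were thresholded in both replicates. The 3 that were not had the 3 lowest pooled signals, and 1 of them passed in replicate 2. No exon peak summit lay on the hairpin itself, which starts 13773 bp from that start. The gene lncRNA:CR43650 likewise encloses the hairpin of mir-8, a microRNA that acts on growth and neuronal survival. A count made after these 2 cases were seen found that 5 of 37 non-coding genes of at least 200 bp with a microRNA hairpin on the same strand held an exon peak, as did 52 of the 2437 others. The 5 include both of these cases, so the count is not independent of them. Gene length was not matched, and the 5 genes spanned 5165 to 15466 bp. Not all of the 5 held a peak thresholded in both replicates.

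**Figure D3:**
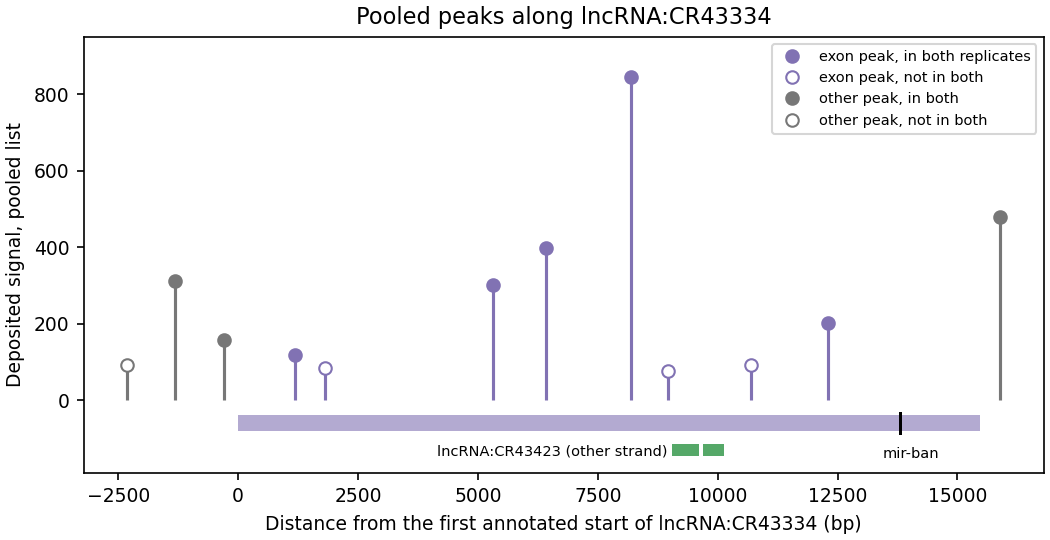
Pooled peaks from 3000 bp before to 3000 bp after lncRNA:CR43334 by distance from its first annotated start (bp), with height giving the authors' signal and filled points marking thresholded peaks of both replicates. Bars under the axis show the transcript, the mir-ban hairpin and the opposite-strand gene lncRNA:CR43423; the tallest exon peak, 843, lies at 8197 bp.

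Among 5' UTRs, the strongest peak was in baz, which encodes the polarity scaffold Bazooka. The peak, chrX:17178519-17178859, had 1139 in the pool, 691 in replicate 1 and 440 in replicate 2. It lay in an internal exon, 4542 bp from the nearest start site. A second baz 5' UTR peak had 142, 81.1 and 53.8. The next highest were in cic, which encodes the repressor Capicua, with 550 in the pool, 339 in replicate 1 and 210 in replicate 2, and in Fbl6, with 525, 329 and 188. The Fbl6 summit lay 504 bp from a start site, and the replicate 1 summit, 11 bp away, was in the promoter class. The firl peak had 465 in the pool, 340 in replicate 1 and 119 in replicate 2. Its ranks in the replicate lists lay further apart, at 330 in replicate 1 and 1249 in replicate 2. The fifth was in eas, an ethanolamine kinase gene, with 416 in the pool, 211 in replicate 1 and 218 in replicate 2. The 5' UTR summits lay early in their gene, which their class largely fixes. Their median was 10.8% of the way from the gene's annotated 5' end to its 3' end, and 744 bp from a start site. That places many of them close to the distance that defines a promoter peak.

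Among 3' UTRs, the strongest peak was in APC7, a subunit gene of the anaphase-promoting complex, at chrX:6599354-6599621. It had 730 in the pool, 371 in replicate 1 and 361 in replicate 2. The peak of Ance-3, a gene related to angiotensin-converting enzyme, had 669, 408 and 272. The peak of by, which encodes a tensin of integrin adhesions, had 550, 303 and 249. The dsb peak had 452, 311 and 145, and the CG7872 peak had 447, 238 and 204. Further 3' UTR peaks among the 20 highest in both replicates were in Ppa, an F-box gene, at 446, and in stas at 422. The 3' UTR summits lay late in their gene, which their class largely fixes. Their median was 91.5% of the way from the gene's 5' end to its 3' end, and 1800.5 bp from the nearest start site. Of the 68, 49 were in last exons.

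Of the 3 peaks in Lsd-2, a perilipin gene of lipid droplets, 2 overlapped each other and the same peak of each replicate. Those 2 had 271 and 90.8 in the pool, and the replicate peak had 164 in replicate 1 and 129 in replicate 2, with its summit within 36 bp of the stronger of them. Counted as separate loci, Lsd-2 therefore held 2 exon peaks. Over all 307, 39 overlapped another pooled peak and 21 overlapped a stronger one. The same counts were not made over all pooled peaks, so these have no background beside them. A signal under 20 was found at 11 exon peaks, or 3.58%, where all peaks give 2.97%. Those 11 all overlapped a stronger pooled peak.

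Coding sequence held 1 peak in the highest 25% by signal, in otp. This gene, orthopedia, encodes a homeodomain of the same paired-like class as Drgx itself. The peak, chr2R:20884496-20884666, lies in its last exon, 4645 bp from the nearest start site, with the nearest other pooled summit 52018 bp away. It had 266 in the pool, 133 in replicate 1 and 133 in replicate 2, and the window of 50 bp either side of its summit held 60.4% G and C. The next highest coding peaks were in Reph with 173, in Snx27, a sorting nexin gene, with 141, in sgg, the GSK3 kinase gene of Wingless signalling, with 139, and in hang, a zinc-finger gene named for ethanol tolerance, with 128. Snx27 had 64.0 in replicate 1 and 73.3 in replicate 2, and sgg had 71.0 and 67.2. Reph passed the threshold in replicate 2 alone and hang in replicate 1 alone.

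Only 5 of the 103 coding-exon peaks overlapped a thresholded peak of both replicates. Besides otp, Snx27 and sgg these were CG1632 and ari-1, both named here because they complete the count. The replicates' peaks there had summits 188 and 143 bp away for CG1632 and 182 and 299 bp away for ari-1. Another pooled summit lay 200 bp and 204 bp from these members. At otp, Snx27 and sgg the replicate summits were 1 to 67 bp away, and in these 3 cases both replicate summits were also in an exon.

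Replicate support was read as overlap by at least 1 bp with thresholded peaks of both replicates. It held for 109 of the 307 exon peaks, or 35.5% (interval 30.2 to 41.1%), where 51.1% of all pooled peaks had it. The share was 56.2% in non-coding exons, 48.5% in 3' UTRs, 47.6% in 5' UTRs and 4.85% in coding exons (interval 1.59 to 11.0%), against 52.6% in introns. Single-replicate support was 56.7% for replicate 1, where all peaks give 71.5%, and 45.0% for replicate 2, where they give 61.4%. Of the exon peaks, 104 overlapped a thresholded peak of neither replicate, or 33.9%, where all peaks give 18.2%, and 68 of these 104 were coding. In the longer ranked lists, from which the thresholded ones were drawn, 98.7% of exon peaks overlapped both replicates, where all peaks give 98.6%. The conservative list held 73.9% of them, where all peaks give 84.6%.

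Low signal and low support went together in exon peaks and in the others. Pooled signal and replicate support come from the same libraries, so this relation is partly built in. The pooled list was cut by signal into 4 bins of 25%. In the lowest bin 3.97% of exon peaks had support from both replicates (interval 1.30 to 9.02%), against 9.67% of all other peaks (8.41 to 11.1%). In the second bin the shares were 12.9% (6.05 to 23.0%) of exon peaks and 20.7% (18.9 to 22.5%) of the others. In the third they were 75.4% of exon peaks and 76.3% of the others, and in the highest 98.0% and 98.3%. The differences in the upper 2 bins were smaller than the exon peaks' intervals. Coding exons contributed 2 of 78 in the lowest bin and 0 of 19 in the second.

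**Figure D4:**
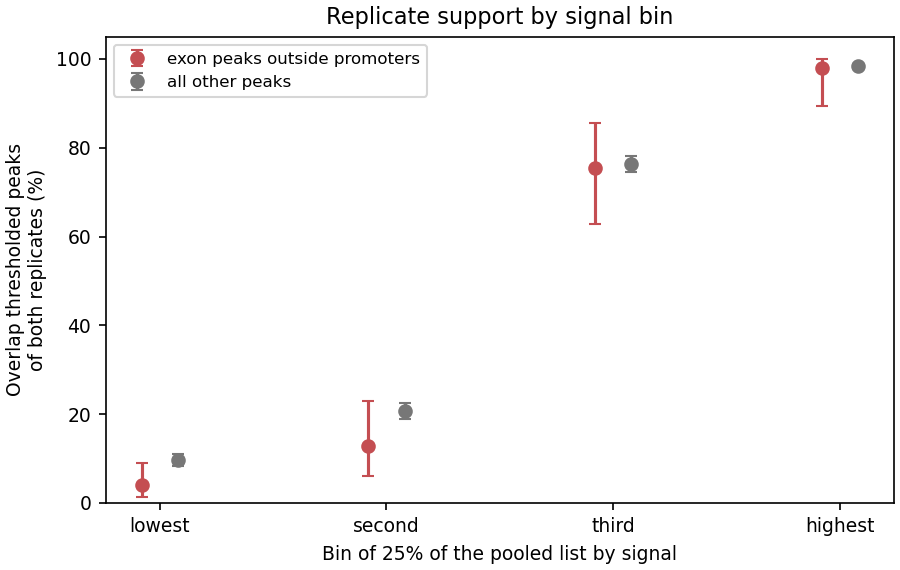
Share of peaks overlapping thresholded peaks of both replicates (%), by bin of 25% of the pooled list by signal, for exon peaks outside promoters and all other peaks. Whiskers are exact 95% binomial intervals; the exon and other shares are 75.4% and 76.3% in the third bin and 98.0% and 98.3% in the highest.

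Coding-exon peaks also overlapped less often when each replicate's own exon peaks were looked up in the other replicate. This lookup does not involve the pooled call, but it was not matched for signal. Of the coding-exon peaks, 72.7% in replicate 1 and 76% in replicate 2 were in the lowest 25% of their own list. Both directions compare the same pair of lists. Of the 33 coding-exon peaks of replicate 1, 4 overlapped a thresholded peak of replicate 2, or 12.1% (interval 3.40 to 28.2%), against 68.9% of all replicate 1 peaks. Of the 25 of replicate 2, 3 overlapped one of replicate 1, or 12% (2.55 to 31.2%), against 78.0%. Non-coding-exon peaks overlapped in 73.3% and 79.6% of cases, 3' UTR peaks in 67.3% and 76.1%, and 5' UTR peaks in 60% and 72.7%.

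Where a replicate had a peak, its summit was near the pooled one. The median distance was 7 bp in replicate 1 (174 peaks) and 16 bp in replicate 2 (138 peaks). Of the 109 peaks with support, 89 had both replicate summits in an exon and outside promoters. The share was highest in 3' UTRs, at 31 of 33, and was 34 of 41 in non-coding exons, 21 of 30 in 5' UTRs and 3 of 5 in coding exons. Across those 109 peaks the log2 signals of the 2 replicates had a Pearson correlation of 0.88, and 0.86 over the 4313 supported pooled peaks. This describes peaks that share 2 libraries and were kept for passing in both.

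Base composition separated coding-exon peaks from the other exon peaks. In the window from 50 bp before to 50 bp after the summit, coding-exon peaks held 58.6 ± 6.81% G and C (SD over 103 peaks), and 93 of 103 exceeded 50%, against 14.6% of all other pooled peaks. Windows 500 bp to the left and right of the same summits held 43.4% and 43.9%, and annotated coding sequence outside promoters holds 53.4%. Non-coding-exon summits held 36.3 ± 11.7% (73 peaks), against 41.5% and 42.5% beside them. The 3' UTR summits held 38.2 ± 11.2% (68 peaks), against 40.6% and 41.4% beside them. The 5' UTR summits held 41.2 ± 11.5% (63 peaks), against 42.3% and 38.3%. Annotated sequence outside promoters holds 41.4% in non-coding exons, 35.2% in 3' UTRs and 45.7% in 5' UTRs. The 3' UTR summits were thus above their class value, and the non-coding-exon and 5' UTR summits were below theirs. All pooled peaks outside this set held 36.6 ± 10.9%, against 41.7% and 42.0%. The rise at coding summits was broad, and the profile passed from above 50% to below 46% between 200 and 300 bp on both sides. Coding-exon summits lay a median of 208 bp from the nearest exon edge (quartiles 87.5 and 360 bp). Windows at these distances and at 500 bp therefore often lay beyond that edge. The share of them still in coding sequence was not computed.

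**Figure D5:**
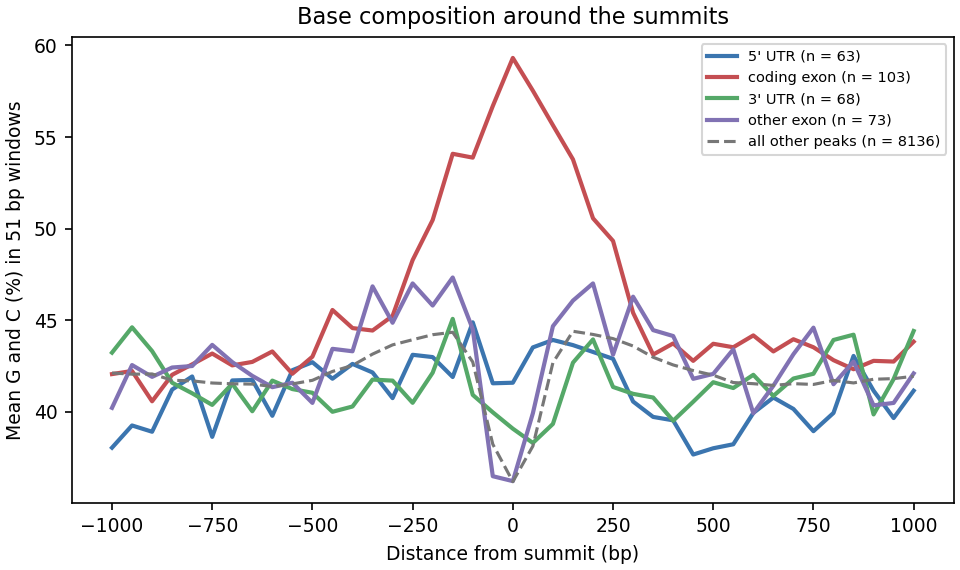
Mean G and C content (%) in 51 bp windows by distance from the summit (bp) for the 4 exon types and all other pooled peaks (dashed). The coding-exon line peaks at the summit near 59%, while the non-coding-exon line and the dashed line dip there to about 36%.

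Averaged over all 307, the summit window held 45.2 ± 14.0% G and C, 3.12 percentage points more than the window to its left. Of the 4 types, coding exons alone exceeded their left window, as given above. In the replicate 1 list the difference was -1.22 points, in the replicate 2 list -0.51, and among pooled peaks above the median signal -4.96. By signal bin from lowest to highest, the exon summits held 52.6%, 45.8%, 39.2% and 33.0%, against 42.0%, 38.3%, 35.2% and 31.3% in all other peaks. Both sets thus fell in G and C with rising signal, and the difference of the means was smaller in each higher bin. In all 4 bins it was smaller than the SD over peaks within either set. In the highest bin that SD was 10.2 in exon peaks and 8.12 in the others. The SD describes the spread of single peaks and does not measure the uncertainty of a mean. Among peaks above 50% G and C, both replicates had 5 of 93 coding-exon peaks, 14 of 39 peaks in other exons and 31.4% of the 1185 other pooled peaks. At 50% or below they had 0 of 10 coding-exon peaks, 90 of 165 in other exons and 55.1% of the rest. Signal was not matched in this split. Above 50% G and C, the median signal percentile was 14.3 in coding exons, 36.3 in other exons and 28.9 in the other pooled peaks.

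TAATTA, searched on both strands within 50 bp of the summit, was present at 12 of the 307 exon peaks, or 3.91% (interval 2.04 to 6.73%), where all pooled peaks give 7.97%. The windows 500 bp to the left and right held it at 19 and 26 of the same peaks. By type it was found at 5 of 73 non-coding-exon, 4 of 63 5' UTR, 3 of 68 3' UTR and 0 of 103 coding-exon summits. Over all windows of that width centred in each class, the shares were 6.85%, 4.57%, 9.35% and 1.04% in the same order, and 3.28% over all exon sequence. The interval of each type included the share of its own exon sequence. The shorter TAAT, which every TAATTA contains, was found at 74.0% of non-coding-exon, 70.6% of 3' UTR, 52.4% of 5' UTR and 22.3% of coding-exon summits, against 66.6% of all pooled peaks. Next in signal after the 4 TAATTA peaks printed above were lncRNA:CR43823, with 161 in the pool, 107 in replicate 1 and 56.7 in replicate 2, and lncRNA:CR44365, with 139 in the pool and a thresholded peak in replicate 2 alone.

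Other short words gave small counts. CACCTG, an E box, was found at 18 exon summits, or 5.86% (interval 3.51 to 9.11%), against 2.19% of all pooled peaks. The flanking windows of the exon peaks held it at 12 and 13, or 3.91% and 4.23%. Those of all pooled peaks held it at 3.849% and 4.003%, so the share at their summits was below that of their own flanks. The interval of the exon summits included all of these flank shares. The share of CACCTG over exon sequence was not computed, so base composition was not tested. Of the 18, 9 were in coding exons. GAGAGAG, the letters bound by GAGA factor, was found at 14, or 4.56% (2.52 to 7.53%), against 2.93%. The words were 13 in all and were searched with no adjustment.

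In position, the exon peaks lay at a median of 1072 bp from the nearest start site, with a range of 501 to 21052 bp, and a median of 264 bp from the nearest exon edge. For 226 the summit was in no intron of any transcript, or 73.6%, against 84.4% of the exon bases. In 193 the whole peak was exonic. Another pooled summit lay within 1000 bp of 110, or 35.8%, where all peaks give 34.2%. The 500 bp limit falls on a slope, with 49 exon peaks from 501 to 600 bp and 68 exonic summits from 401 to 500 bp. The nearest outside it were Pp2C1 and Map60, both at 501 bp, with signals of 135 and 40.9. The nearest inside it were lncRNA:CR45618 at 498 bp with 278 and lncRNA:CR45564 at 497 bp with 164.

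The 307 peaks fell in 271 genes, 214 protein-coding and 57 non-coding, and 245 genes held 1 peak each. Genes with 3 or more were lncRNA:CR43334, lncRNA:CR44619, lncRNA:CR43650, Lsd-2 and Eip74EF, an ecdysone-induced gene for an Ets transcription factor. The 3 Eip74EF peaks were coding, with 86.2, 74.1 and 67.2 in the pool, and none was a thresholded peak of either replicate. Of the 214 protein-coding hosts, 97 also had a pooled summit within 500 bp of one of their own start sites, or 45.3% (interval 38.5 to 52.3%), where all protein-coding genes give 20.9%. The hosts were chosen for holding a pooled peak. Neither gene length nor the number of start sites was matched, so these shares do not show a link between exon and promoter peaks.

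Each functional list held few genes with an exon peak. Over all protein-coding genes the share was 1.55%. It was 7.27% of chromatin regulators (interval 2.02 to 17.6%), 4.35% of RNA-binding and 3.77% of signalling genes. Muscle and cytoskeletal genes had 3.33%, homeobox genes 2.33% and axon guidance genes 2.22%. Apart from chromatin regulators, the interval of each protein-coding list included 1.55%. Gene length was not matched, and no adjustment was made for the number of lists. Of 86 homeobox genes, 2 had an exon peak, otp and NK7.1, whose 3' UTR peak had 12.2 in the pool. Of 55 chromatin regulators, 4 had one. The histone demethylase gene Utx had 193 and the Mediator subunit gene skd had 174, both in 5' UTRs and in both replicates. The Polycomb group genes phol and Scm had coding peaks of 76.0 and 68.1, not in both replicates. Of 46 RNA-binding and splicing genes, 2 did, the SR-protein gene x16 with 85.0 and the Argonaute gene AGO1 with 83.5, both coding and not in both replicates. Of 53 signalling genes, 2 did, with 123 at the feedback inhibitor gene sty and 82.7 at the Hedgehog receptor gene ptc. Axon guidance had 1 of 45, the netrin gene NetB with 295, and muscle and cytoskeletal genes had 1 of 30, the actin gene Act5C with 122. Heat shock and chaperone genes had 0 of 23, and regulatory non-coding RNA genes had 0 of 12 matched names of 22 listed, where 60 of all 3261 non-coding RNA genes, or 1.84%, had one.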

How the data were processed

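The authors deposited peak lists from chromatin immunoprecipitation of Drgx-eGFP with anti-GFP in 2 biological replicates, on dm6 per the submitters' processing notes. No label or header names the aligner or the peak caller. In the deposited lists each peak carries a signal, a score capped at 1000 and a −log10 q-value, all made by the authors (the q-value was not used), with the summit's offset. Lists thresholded for reproducibility, pooled, conservative and per replicate, and the longer ranked list of each replicate, were used.

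Summits on X, 2L, 2R, 3L, 3R and 4 were placed in Ensembl release 115 annotation of the Release 6 assembly: promoter (within 500 bp of a start site), then 5' UTR, coding, 3' UTR, other exon, intron and intergenic. Overlap needed at least 1 bp. G and C and words were read in windows of 50 bp either side of the summit and of points 500 bp to each side. Intervals are exact Clopper-Pearson at 95%. Python 3.11.15, numpy 2.4.6, pandas 2.3.3 and scipy 1.17.1 were used, and the code was tested on simulated data.

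Genes are named for the exon holding the summit: the 20 highest peaks found in both replicates, the 5 highest per exon type, genes with 3 or more, the 6 highest with TAATTA, up to 4 per gene list, and those nearest the 500 bp limit. Sequence from chromosome arm 2R is not shown. The exon peaks and lists were chosen with earlier results of these data known. Alternatives were other lists, the peaks above the median signal, other distances, annotations, windows and overlap rules.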

Additional observations from a re-analysis of the deposited data

How the results depend on the processing

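No paired analysis was possible because there is 1 group. The conservative list moved no count past 1.5 times and gave 44.5% G and C at summits. One replicate's list in place of the pool gave 158 to 192 exon peaks at 5.98 to 7.26 per Mb, median signal percentiles of 35.0 to 42.9, 40.8 to 41.1% G and C, and a difference from the left window of -1.22 to -0.51 points. By type it gave 33 to 50 5' UTR, 25 to 33 coding, 46 to 49 3' UTR and 54 to 60 non-coding-exon peaks. Support by both replicates has no value from one replicate. The pooled peaks above the median signal gave 111 exon peaks (27, 6, 34 and 44 by type in that order), 4.20 per Mb, percentile 44.5, 36.4% G and C, a difference of -4.96 points and support of 85.6%. A promoter distance of 250 bp gave 485 peaks, 15.9 per Mb and 44.6% G and C, with 156 in 5' UTRs and 124 in non-coding exons. A distance of 1000 bp gave 163 peaks, 8.05 per Mb, percentile 39.3 and 43.6% G and C, with 18 in 5' UTRs, 52 coding and 37 in non-coding exons. Start sites of protein-coding genes alone gave 14.7 per Mb, 44.1% G and C and 168 non-coding-exon peaks. Summits in no intron gave 10.1 per Mb, 46.7% G and C and 33 in 5' UTRs. Summits 50 bp inside the exon gave 46.4%, and windows of 100 bp either side gave 46.1% with TAATTA at 7.82%. Ranked lists gave support of 98.7%. Leaving out the weakest decile, chosen after seeing the data, gave support of 42%. Leaving out lncRNA:CR43334, chosen likewise, gave support of 34.8%, against 35.5% with it, and left the median signal percentile at 33.0. Coding sequence had the lowest density in the pooled, conservative and both replicate lists. The causes were not tested. With 2 replicates, no control library and no read counts, these values cover 1 strain and stage, and depth and background at weak peaks are unknown.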
